A study of Mus musculus and Mus musculus x Mus spretus with 8 samples.

Results

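Receptors for 4 small transmitters, GABA, glutamate, glycine and serotonin, were followed through single glomus cells, the oxygen-sensing cells of the carotid body, taken from mice. The genes were taken by symbol: GABA-A subunits (Gabr), GABA-B subunits (Gabbr), AMPA (Gria), NMDA (Grin), kainate (Grik) and metabotropic (Grm) glutamate receptors, glycine receptor subunits (Glra and Glrb) and serotonin receptors (Htr). This gave 64 of the 24060 symbols in the deposited tables. All 8 cells were wild type and came from pups of postnatal days 4 to 5, 7 of strain C57BL/6 and 1, cell 2, of a C57BL/6 X SPRET/EiJ cross. They had been picked as cells that express Th, Uchl1 and Kcnk3, so the series holds 1 group and no contrast between conditions. Since the labels name no animal for any cell, the group counts as 1 sample, and levels are described cell by cell without p-values.

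Levels are the deposited RPM, the reads of a gene scaled to the same total of 1000000 in every cell. Detection means a level of at least 1 RPM. Total counts ran from 3960200 reads in cell 1 to 30218206 in cell 2, so that 0 reads allow a level of up to 0.758 RPM in the shallowest cell and 0.0993 RPM in the deepest. These limits cover counting error only, because reads copied by PCR from the same molecule cannot be separated and losses before amplification are unknown. All 14 genes of a glomus cell marker list were detected in at least 6 cells, 13 of them in all 8. The list includes Th, Uchl1 and Kcnk3, by which the cells had been picked, so their detection followed from that choice. Of 10 glial markers, Gfap, S100b, Sox10, Erbb3, Cdh19 and Foxd3 had 0 reads in every cell, as did all 8 blood and immune markers. Mbp, also on the glial list, was at 104 RPM or more in all 8 cells. Of 8 endothelial markers Cldn5 was detected in 6 cells and the other 7 had 0 reads, and of 6 fibroblast markers Col3a1 was detected in 2 cells. Of 7 pericyte and smooth muscle markers only Rgs5 was detected in at least 6 cells, at 42.5 to 2449 RPM in all 8. Cell 4 stood apart, with 170 RPM of Epas1, a hypoxia-inducible factor gene abundant in glomus cells, against 5590 to 12192 RPM in the other cells.

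AMPA, kainate and NMDA receptors are cation channels opened by glutamate, each assembled from several subunits. GABA-A and glycine receptors are chloride channels assembled from another family of subunits, and Htr3 genes encode the cation channels of the same architecture that serotonin opens. GABA-B receptors, metabotropic glutamate receptors and the remaining serotonin receptors act through G proteins. In the carotid body, GABA and serotonin have been studied as messengers that adjust the glomus cell and its contact with the sensory nerve.

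Few of these receptor genes were expressed, and those that were often reached levels well above the detection limit. Of the 64 genes 17 were detected in at least 1 cell, which is 26.6%, beside 44.8% of all symbols. In at least 6 cells 4 were detected, which is 6.25% beside 14.2% of all symbols. Among these were Gria2 in 8 cells, Gabbr1 in 7 and Glrb in 6. With the same minimum of 6 cells, this count was 2 when cell 2, 3, 7 or 8 was left out and 3 when any other cell was. Only Gria2 was detected in all 8 cells, 1.56% of the receptor genes beside 4.88% of all symbols. At least 1 read was found for 21 genes, 32.8% beside 48.3% of all symbols. The other 43 had 0 reads in every cell, which over the 69360800 reads of all cells allows 0.0433 RPM. Grin3b, Gabrg1, Grm5 and Htr1d had reads but stayed under 1 RPM. Where a receptor gene was detected, the median level was 138 RPM (56 values), against 75.5 RPM over all detected values of the table. Each cell detected between 5 (cell 4) and 9 (cells 1 and 8) of the 64 genes.

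**Figure D1:**
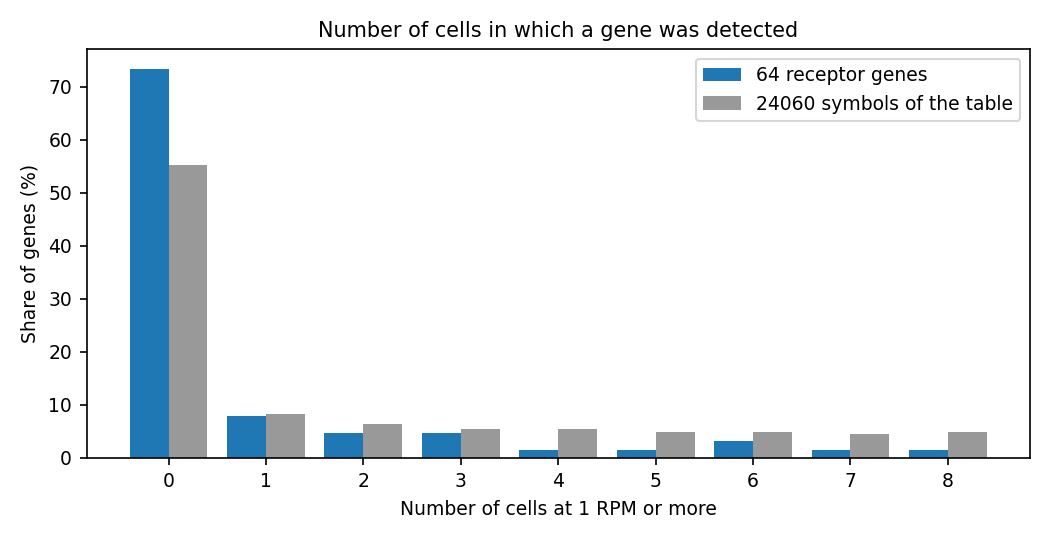
The share of genes (vertical axis, percent) is plotted against the number of cells in which they reached 1 RPM (horizontal axis), for the 64 receptor genes and for all 24060 symbols. No cell detected 73.4% of the receptor genes and 55.2% of all symbols.

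**Figure D2:**
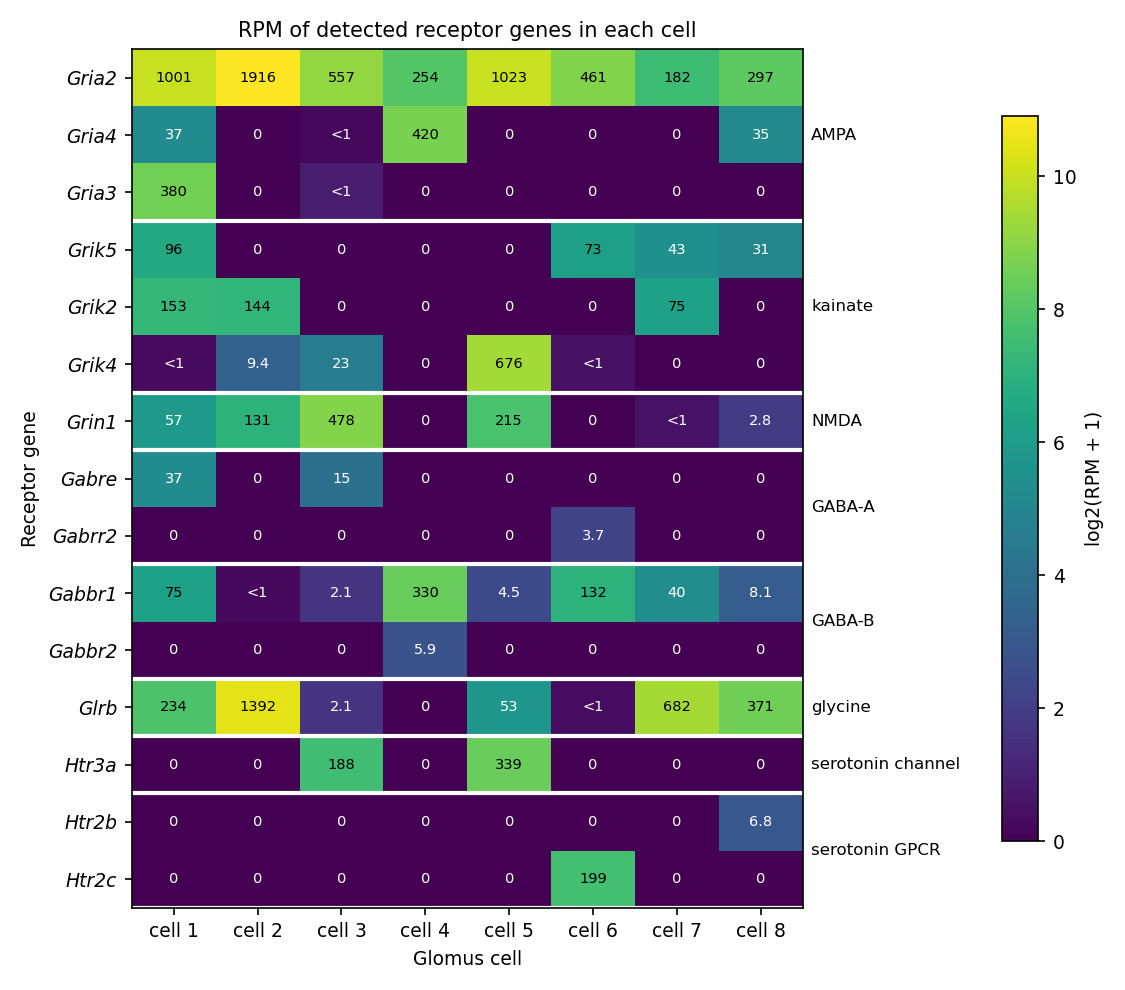
Each square gives the RPM of 1 of 15 detected receptor genes (rows, grouped by family) in 1 cell (columns), coloured by log2(RPM + 1). Gria2 fills its whole row, from 182 to 1916 RPM, while each of the other 14 rows has at least 1 cell under 1 RPM.

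Gria2, the AMPA subunit that sets the low calcium permeability of the channel, was present in every cell. It stood at 1001, 1916, 557, 254, 1023, 461, 182 and 297 RPM in cells 1 to 8, a median of 509 RPM. Cell 2, the hybrid and the deepest library, was highest and cell 7 lowest. By level it ranked between 32 (cell 2) and 1669 (cell 7) among all symbols of a cell. Its SD over cells was 1.16 on the log2(RPM + 1) scale.

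The other AMPA subunits were sporadic, and Gria1 had 0 reads in all 8 cells. Gria4 was detected in 3 cells, at 36.9 RPM in cell 1, 420 RPM in cell 4 and 34.7 RPM in cell 8. It had 0.188 RPM in cell 3 and 0 reads in the remaining 4. Gria3 was detected in cell 1 alone, at 380 RPM, with 0.753 RPM in cell 3 and 0 reads elsewhere. Gria2 was thus the only detected AMPA subunit in 5 cells, namely 2, 3, 5, 6 and 7. Related genes were set against each other within each cell as log2(RPM per kb + 1), using the length of the longest annotated transcript. On this scale Gria2 was above Gria1 in every one of the 8 cells, with a median difference of 5.64 (SD 1.14, range 4.22 to 7.54), a difference limited by the pseudocount since Gria1 had no read. It exceeded Gria3 in 8 of 8 cells by a median of 5.20 (SD 2.13), with 0.39 in cell 1. It exceeded Gria4 in 7 of 8 cells by a median of 4.86 (SD 2.93). Cell 4 was the exception, with Gria4 above Gria2, a difference of -1.61.

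Glrb, the beta subunit that ties glycine receptors to the scaffold under the synapse, reached the second highest median level per kb of transcript. This rank did not hold per kb of coding sequence. Glrb stood at 234, 1392, 2.07, 0, 52.5, 0.283, 682 and 371 RPM in cells 1 to 8. Cell 2 was again highest, cells 4 and 6 were under the detection limit and cell 3 close to it. The median of 143 RPM rested on single cells, being 52.5 RPM without cell 1, 2, 7 or 8 and 234 RPM without cell 3, 4, 5 or 6. Beta subunits form glycine-gated channels together with alpha subunits. All 4 alpha genes, Glra1, Glra2, Glra3 and Glra4, had 0 reads in all 8 cells, so none of the 6 cells with Glrb had a detected partner. Glrb exceeded each of Glra1, Glra2 and Glra3 in 7 cells and tied with them at 0 in cell 4, by a median of 5.24 log2 units per kb (SD 3.64).

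Gria2 and Glrb are neighbours on mouse chromosome 3, both on the minus strand of mm10, at 80681450 to 80802835 and 80843599 to 80913660, with 40.8 kb between them. Their values did not run in parallel: Gria2 was 557 RPM in cell 3 and 461 RPM in cell 6, where Glrb was at or under 2.07 RPM. The 250 bases before each start are printed because these are the 2 genes with the highest median level per kb of transcript. Those of the kainate subunits Grik4 and Grik5 follow. These were not among the fixed pairs, and no cell detected both at 1 RPM or more. Capitals mark CG pairs; sequences run 5′ to 3′ on the strand of the gene and come from RefSeq, build GRCm38.p6. The windows are chr3:80802836-80803085 for Gria2, chr3:80913661-80913910 for Glrb, chr9:42944372-42944621 for Grik4 and chr7:25072370-25072619 for Grik5, all on the minus strand.
Gria2: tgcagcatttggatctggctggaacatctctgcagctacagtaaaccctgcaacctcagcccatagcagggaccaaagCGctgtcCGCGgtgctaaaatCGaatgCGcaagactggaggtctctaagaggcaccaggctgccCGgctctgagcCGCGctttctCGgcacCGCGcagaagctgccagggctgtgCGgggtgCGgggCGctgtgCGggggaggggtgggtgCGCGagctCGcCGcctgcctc
Glrb: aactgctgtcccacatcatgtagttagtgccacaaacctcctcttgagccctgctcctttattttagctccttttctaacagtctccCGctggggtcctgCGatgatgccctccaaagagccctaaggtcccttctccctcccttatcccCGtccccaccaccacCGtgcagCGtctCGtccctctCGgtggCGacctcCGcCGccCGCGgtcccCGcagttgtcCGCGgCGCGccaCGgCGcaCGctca
Grik4: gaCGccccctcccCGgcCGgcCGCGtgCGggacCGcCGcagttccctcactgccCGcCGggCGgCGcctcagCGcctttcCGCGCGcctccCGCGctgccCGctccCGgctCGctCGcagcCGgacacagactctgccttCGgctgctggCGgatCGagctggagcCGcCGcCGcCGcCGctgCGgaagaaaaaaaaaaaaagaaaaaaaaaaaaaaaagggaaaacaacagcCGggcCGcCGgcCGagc
Grik5: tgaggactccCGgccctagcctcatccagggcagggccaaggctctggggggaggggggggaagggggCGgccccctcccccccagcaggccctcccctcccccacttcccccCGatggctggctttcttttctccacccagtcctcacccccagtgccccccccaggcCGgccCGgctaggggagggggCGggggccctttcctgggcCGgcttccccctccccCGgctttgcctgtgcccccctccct
The windows hold 19 CG pairs for Gria2, 20 for Glrb, 36 for Grik4 and 8 for Grik5. Among 32851 RefSeq promoter windows of this length, the median was 6, and 19.7%, 17.9%, 2.58% and 43.0% held at least as many. Of the 64 receptor genes, 47 had a window in the table. The 13 windows of detected receptor genes had a median of 19 CG pairs (range 1 to 37) and the 43 windows of undetected ones a median of 8 (range 0 to 42), so the ranges overlapped almost entirely. The GC box GGGCGG, searched on both strands, occurred in 6 of the 13 and 20 of the 43 windows, 46.2% and 46.5%, beside 32.7% of all windows. It was absent from the Gria2 window. These counts describe the letters of the windows and no binding.

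Kainate receptor subunits were detected in 7 of the 8 cells, with cell 4 the exception. Grik2, a subunit that forms channels on its own, was detected in 3 cells, at 153 RPM in cell 1, 144 RPM in cell 2 and 75.4 RPM in cell 7, and had 0 reads in the other 5. Grik4 and Grik5 encode the high-affinity subunits that need a partner of the Grik1 to Grik3 type to form a channel. Grik5 stood at 96.5, 72.9, 43.3 and 31.2 RPM in cells 1, 6, 7 and 8, with 0 reads in the others. The median of 15.6 RPM was 0 RPM without cell 1, 6, 7 or 8 and 31.2 RPM without cell 2, 3, 4 or 5. Grik4 stood at 9.43, 23.3 and 676 RPM in cells 2, 3 and 5. It had 0.253 RPM in cell 1 and 0.424 RPM in cell 6, and 0 reads in cells 4, 7 and 8. All 7 kainate-positive cells therefore detected Grik4 or Grik5, and 0 cells detected both, although cells 1 and 6 held reads of both. Grik4 was detected in 3 of 8 cells and Grik5 in 4, counts too small to give their lack of overlap a meaning. The 2 genes were not among the fixed pairs, and their lack of overlap was not tested. In 3 of the 7 kainate-positive cells, cells 1, 2 and 7, Grik2 was present as a possible partner. The remaining 4, cells 3, 5, 6 and 8, had none, as Grik1 and Grik3 had 0 reads in all 8 cells. Grik5 exceeded Grik2 in 4 cells and lay below it in 1, with a median difference of 0.24 log2 units per kb (SD 2.49, range -4.03 to 4.35), or from 0.00 to 0.48 with 1 cell left out, so neither led throughout. Grik2 exceeded Grik1 in the 3 cells that detected it, with a median of 0.00 over all cells (range 0.00 to 4.10).

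NMDA receptors were represented by their obligatory subunit alone. Grin1, which every NMDA receptor contains, was at 57.1, 131, 478, 0, 215, 0, 0.462 and 2.76 RPM in cells 1 to 8. It was detected in 5 cells, in 4 of them at 57.1 RPM or more, and in cell 8 only just. The median of 29.9 RPM was 2.76 RPM without cell 1, 2, 3 or 5 and 57.1 RPM without cell 4, 6, 7 or 8. The subunits that complete the channel, Grin2a to Grin2d, Grin3a and Grin3b, were detected in no cell, and 5 of these 6 had 0 reads throughout. Grin3b had a single read in cell 8, 0.145 RPM, and 32.1% of its exon bases overlap Tmem259 on the opposite strand, a gene detected in all 8 cells. Against Grin2a, Grin2b and Grin2d alike, Grin1 was higher in 6 cells and tied at 0 in 2, by a median of 2.28 log2 units per kb (SD 2.86), or from 0.72 to 3.84 with 1 cell left out. On the opposite strand of Grin1 lies Grin1os, which overlaps 13.5% of its exon bases. Grin1os stayed at or under 0.430 RPM in all cells, and since the strand setting of the counting is not given, reads from the pair cannot be told apart.

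None of the 8 metabotropic glutamate receptor genes was detected. The only read among them was 1 read of Grm5 in cell 1, 0.253 RPM. Over all 8 cells the family summed to no more than this read.

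GABA-A receptor genes were the most numerous, and most of them were not detected. Of the 19, 4 were detected in at least 1 cell. The classical GABA-A channel combines alpha, beta and gamma subunits, with GABA bound between alpha and beta. Gabrd, whose delta subunit takes the place of gamma in channels outside synapses, had 0 reads in all 8 cells, as did Gabrp and Gabrq, the genes of the pi and theta subunits. Gabrg1, a gamma subunit, had 1 read in cell 8, 0.145 RPM. Gabre, which encodes the epsilon subunit, was detected at 37.4 RPM in cell 1 and 15.1 RPM in cell 3 and had 0 reads in the other 6. Gabrr2, a rho subunit of a kind that can form channels without other subunits, reached 3.68 RPM in cell 6, from 26 reads, and had 0 reads elsewhere. The other rho genes, Gabrr1 and Gabrr3, had 0 reads in every cell. Cell 5 detected none of the 19.

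**Figure D3:**
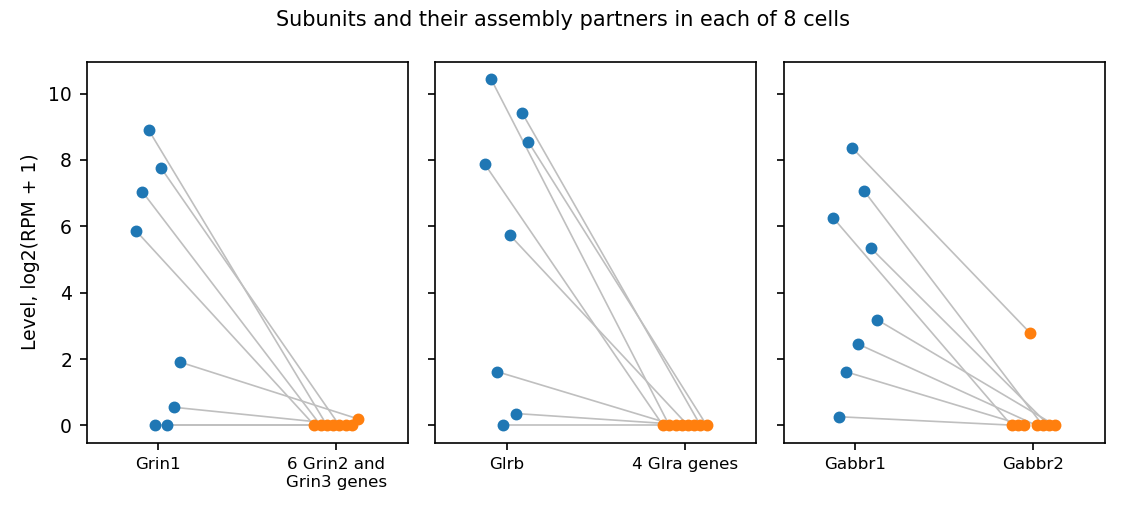
Each panel joins, for each of the 8 cells, the level of a subunit (left, blue) to that of its assembly partners (right, orange, summed where there are several), as log2(RPM + 1) without length correction. The partners of Grin1 and Glrb lie at or close to 0 in every cell, and Gabbr2 is above 1 RPM in cell 4 only.

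GABA-B receptors need 2 different subunits, and 1 of them was detected far more often. Gabbr1, which binds GABA, was at 75.2, 0.199, 2.07, 330, 4.47, 132, 39.8 and 8.13 RPM in cells 1 to 8. It was highest in cell 4, spanned the range from 2.07 RPM upwards in the other 6 detecting cells, and was under the limit in cell 2. The median of 23.9 RPM was 8.13 RPM without cell 1, 4, 6 or 7 and 39.8 RPM without cell 2, 3, 5 or 8. Gabbr2, the subunit that carries the first one to the cell surface and couples to the G protein, was detected in cell 4 alone, at 5.87 RPM from 29 reads. Gabbr1 was above it in each of the 8 cells, with a median difference of 2.23 log2 units per kb (SD 1.98, range 0.05 to 4.98), or from 1.35 to 3.10 with 1 cell left out. Of the 7 cells with Gabbr1, 1 therefore had both subunits of the receptor detected.

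Serotonin receptor genes appeared in 4 cells, each with 1 of them. Htr3a, the subunit that can form the serotonin-gated channel on its own, was at 188 RPM in cell 3 and 339 RPM in cell 5 and had 0 reads in the other 6. Htr3b, which joins it in mixed channels, had 0 reads in all cells, and the differences in cells 3 and 5 were 6.51 and 7.35 log2 units per kb. Htr2c, a receptor coupled to phospholipase C, was found in cell 6 alone, at 199 RPM, where it exceeded Htr2a (0 reads in all cells, Htr2a minus Htr2c -5.38). Htr2b, a related receptor, was at 6.82 RPM in cell 8 alone, from 47 reads. Its exons overlap Psmd1 on the opposite strand over 11.8% of their bases, and Psmd1 was at 49.0 to 669 RPM in all 8 cells. Htr1d had a trace of 0.0331 RPM in the deepest cell, and the other 9 genes for G protein-coupled serotonin receptors had 0 reads.

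Per kb of the longest transcript, medians stood at 49.1 RPM per kb for Gria2 and 47.3 for Glrb, and at 7.00 for Grin1, 4.56 for Gabbr1 and 4.15 for Grik5. Ranges over cells overlapped between each of these and the next, for example 17.6 to 185 for Gria2 and 0 to 460 for Glrb, so the order describes the medians and no step in it exceeds the spread. The gene with the highest level per kb changed from cell to cell. It was Gria2 in cells 1 and 6, Glrb in cells 2, 7 and 8, Grin1 in cell 3, Gria4 in cell 4 and Htr3a in cell 5. With coding length in its place the leading gene changed in 3 cells, in cell 5 to Gria2, since the annotated Gria2 transcript of 10371 bases has a coding part of 2649 bases. Stretches of 50 bases or more that match another gene at 95% identity covered at most 3.44% of the transcript of any detected receptor gene named here, apart from Grin1 and Htr2b, whose matches were to their opposite-strand neighbours.

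**Figure D4:**
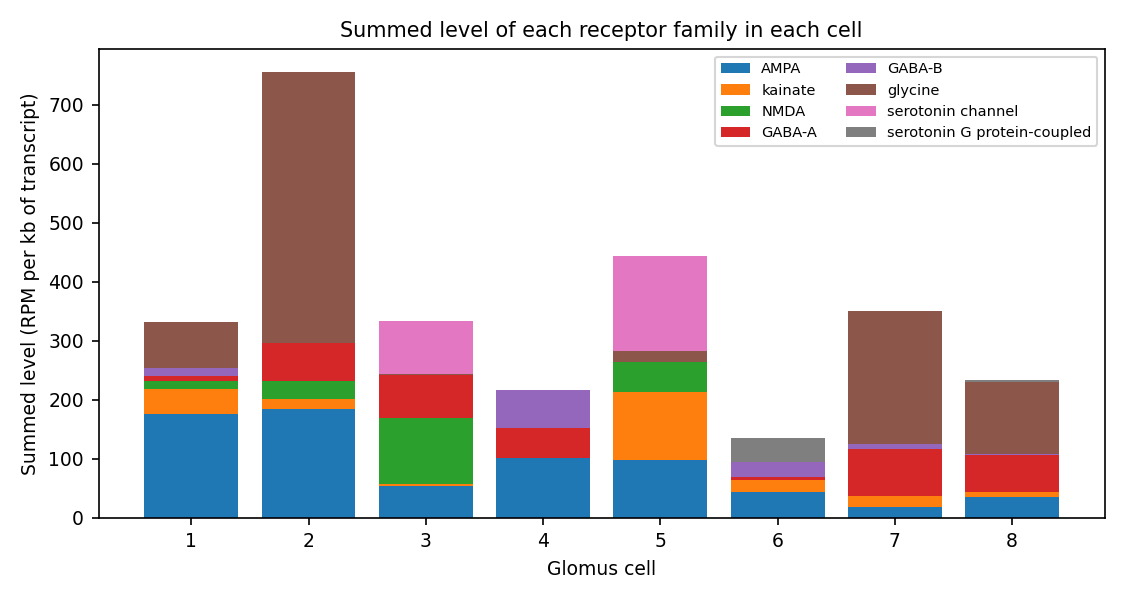
Bars stack the summed level of each receptor family (RPM per kb of transcript) in cells 1 to 8, with metabotropic glutamate receptors left out as they were at 0.0314 or less. AMPA genes contribute in every cell, from 17.6 to 185 RPM per kb, and the total runs from 136 in cell 6 to 757 in cell 2, where Glrb alone gives 460.

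AMPA receptors formed the largest family sum per kb in cells 1, 4 and 6, glycine receptors in cells 2, 7 and 8, NMDA receptors in cell 3 and the serotonin channel in cell 5. Cell 2 had the highest total. It is the only hybrid and by far the deepest library, so strain, depth and the cell itself cannot be told apart.

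Cell 4 detected the fewest receptor genes, 5, among them Gria2, Gria4, Gabbr1 and Gabbr2. Among the cells it was highest in Gria4, Gabbr1 and Gabbr2, and it had 0 reads of Glrb, Grin1, every kainate subunit and every serotonin receptor. A list of 10 neuron markers summed to 9594 RPM in this cell against 1278 to 4547 RPM in the others, with 5 of the 10 detected against 2 or 3. Of this sum 7293 RPM came from Snap25, a synaptic vesicle fusion gene that the glomus cell list holds as well. Among the neurofilament genes, Nefh had 0 reads in cell 4 and in cell 2 and was at 104 to 613 RPM in the other 6. Prph was at 223 RPM and Nefl at 1143 RPM in cell 4, both at or under 0.223 RPM in every other cell, whereas Slc17a6, P2rx3 and Chat had 0 reads in all cells. Nefh, Prph and Nefl were named after their values were seen. The part of these differences between cells in the receptor values was not tested.

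By position, 20 of the 64 genes lie in 7 clusters of neighbours spaced by at most 1000000 bases, and 7 of the 20 were detected, against 10 of the 44 outside. GABA-A genes make up 5 of these clusters. On the X chromosome, at 72255999 to 72842602, Gabre was detected and its neighbours Gabra3 and Gabrq had 0 reads. On chromosome 4, at 33062999 to 33163588, Gabrr2 was detected and Gabrr1 had 0 reads. In the cluster on chromosome 5, at 70751047 to 72149037, none of Gabrg1, Gabra2, Gabra4 and Gabrb1 was detected. Htr3a and Htr3b on chromosome 9 were split in the same way, while Gria2 and Glrb on chromosome 3 were both detected in at least 6 cells.

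Genes whose proteins traffic and anchor GABA and glycine receptors were detected in most cells. Of 20 such genes and chloride transporters 16 were detected in at least 1 cell and 10 in at least 6. The highest by mean log2(RPM + 1) were Gabarap, which binds GABA-A receptors and takes part in autophagy (median 441 RPM), Ubqln1, a ubiquitin-like adaptor (331 RPM), Clptm1, which holds GABA-A subunits back in the endoplasmic reticulum (235 RPM), and the adhesion protein of inhibitory synapses Nlgn2 (115 RPM), each in 8 of 8 cells. Trak2, a trafficking adaptor, had a higher median than Nlgn2, 172 RPM, but was detected in 6 cells and had 0 reads in cells 3 and 5. Most of these proteins also have roles outside receptor traffic. Gphn, the scaffold that Glrb binds, was detected in 4 cells at 1.56 to 19.2 RPM. The chloride transporters Slc12a2 and Slc12a5 were detected in 2 cells and 1 cell. Trak2, Gphn and the transporters were named after their values were seen.

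Of 33 measured glutamate receptor partners and scaffolds 21 were detected, of which 3 in at least 6 cells. These were Grina, a protein named for its relation to NMDA receptors that is no channel subunit (median 1941 RPM, range 1213 to 2560), Cnih2, an AMPA receptor auxiliary subunit (46.8 RPM, range 0 to 611), and Porcn, which also associates with AMPA receptors (14.5 RPM, range 0 to 116). Cacng2, the AMPA auxiliary subunit stargazin, named after its values were seen, was at 47.5, 55.4, 302 and 13.2 RPM in cells 1, 2, 3 and 8 and had 0 reads in the others.

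Genes that make or load the transmitters themselves were detected in few cells, apart from those shared with dopamine. Of 9 genes of GABA synthesis, uptake and breakdown, only the degrading enzyme Abat was detected in at least 6 cells, with a median of 178 RPM (range 0 to 504). Gad2, a GABA-synthesizing enzyme named after its values were seen, was at 104 RPM in cell 4 and at 0 reads in the other 7. Of 12 glutamate genes only Glul, glutamine synthetase, was (median 40.0 RPM), and of 7 glycine genes only Shmt2, a mitochondrial enzyme that makes glycine from serine (13.4 RPM). Of 10 serotonin genes the 2 found in at least 6 cells were Ddc (2407 RPM) and Slc18a2 (850 RPM), which dopamine cells use as well. Tph1 and Tph2, the enzymes specific to serotonin synthesis, were detected in no cell: Tph2 had 0 reads and Tph1 a single read in cell 6, 0.141 RPM.

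Other transmitter receptors of these cells were read in the same way. Of 16 nicotinic receptor subunit genes 6 were detected in at least 1 cell and 2 in at least 6, and of 19 purinergic receptor genes 4 and 2. Their summed levels, not corrected for length, were 104 to 1802 RPM and 0 to 3014 RPM over the cells, and both ranges overlapped that of the 64 genes, 893 to 3963 RPM. No test of these differences was possible with 1 sample.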

How the data were processed

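Single glomus cells were lysed and their RNA was reverse transcribed, amplified and made into libraries with a transposase kit, per the labels' protocols. Reads were aligned with Bowtie to mm10, per the submitters' processing notes; its version, the counting tool, the gene annotation, how multiple matches were handled and whether strand was used are not stated in those sources. Each deposited table holds a raw read count and an RPM per symbol, per the file headers; dividing each count by its cell's total and scaling to 1000000 gave back the RPM that the authors deposited. No column of the tables was left unused.

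The genes were taken by symbol pattern, and members and lists were chosen with earlier results of these data known. Named are every receptor gene at 1 RPM or more in any cell, both genes of fixed pairs, and of each list the 4 members that, being detected in 6 cells or more, have the highest mean log2(RPM + 1); a list with none gives its highest member. Some genes that the rule takes are not reported here; they stay in counts and family sums. Each sample is 1 cell with no animal named, so no test was run; SD and ranges are over cells. Lengths, positions and exon overlaps came from GENCODE M21 (mm10); copies were searched with blastn 2.17.0 at 95% identity over 50 bases. Receptor gene windows of 250 bases came from RefSeq (GRCm38.p6). The pseudocount was 1. Summaries were computed with Python 3.11.15 and pandas 2.3.3, and checked on simulated data. Alternatives were other detection limits, edgeR 4.0.16 TMM scaling, another pseudocount, other lengths and leaving out each cell. One listed symbol, Grinl1a, was not matched in the table.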

Additional observations from a re-analysis of the deposited data

Results flagged for a closer look

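Each of 39 sets of 8 values was screened for a cell apart from the others. A cell was picked when its gap to its nearest neighbour, as a share of the log2(RPM + 1) range, exceeded Dixon's limit for 8 values. In all, 10 were picked out. The limit picks about 1 in 20 sets of normally distributed values. That rate does not hold for sets made mostly of 0, so 10 of 39 cannot be set against it. Genes found in a single cell are picked by construction. These were Htr2b at 6.82 RPM in cell 8, Gabrr2 at 3.68 RPM in cell 6, Gabbr2 at 5.87 RPM in cell 4 and Htr2c at 199 RPM in cell 6, with 0 reads in the other cells. Gria3 stood at 380 RPM in cell 1 against at most 0.753 RPM. Sums over receptor families stood apart for metabotropic glutamate receptors in cell 1, at 0.253 RPM from 1 read, again by construction. The sum of G protein-coupled serotonin receptors stood apart in cell 6, at 199 RPM against at most 6.82 RPM. All of it was Htr2c, so this repeats the pick of that gene. The GABA-A sum was low in cell 5, at 0.223 RPM against 28.1 to 409 RPM. Among the lists, the GABA synthesis and uptake genes summed to 0 RPM in cell 3 against 71.6 to 504 RPM. The pericyte and smooth muscle markers summed to 44.5 RPM in cell 4 against 767 to 2803 RPM. Most of this sum was Rgs5 in every cell, at 42.5 RPM in cell 4 and 672 to 2449 RPM in the others.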

How the results depend on the processing

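No paired analysis was possible because the series has 1 group. The number of receptor genes detected in at least 6 cells was 2 at a limit of 10 RPM, and 2 to 3 with 1 cell left out, where fewer cells can reach that minimum. The number detected in any cell was 15 to 17 with 1 cell left out. Among the median log2 differences per kb, a pseudocount of 0.1 gave 4.93 for Gabbr1 minus Gabbr2 and 8.94, 8.06 and 8.05 for Gria2 minus Gria1, Gria3 and Gria4. Without length correction, Gabbr1 minus Gabbr2 was 4.27 and the Gria2 differences were 8.99, 8.27 and 8.18. Per kb of coding sequence, Gria2 minus Gria1 was 7.59. These larger values follow from the scale, since the lower gene is mostly at 0. No median difference changed sign under the alternatives run, but for most pairs this was fixed in advance. Where 1 gene of a pair had 0 reads in every cell, as in Gria2 minus Gria1, no alternative could reverse the sign. Grik5 minus Grik2, with reads of both genes, went from 0.24 to 0.00 per kb of coding sequence. TMM factors ran from 0.825 to 1.16. With them the median AMPA sum went from 616 to 588 RPM and the glycine receptor sum from 143 to 127 RPM. The GABA-B sum rose from 23.9 to 24.3 RPM. The SD over cells was 593, 487 and 115 RPM. Factors of this size could not shift these medians by that much, so the SD is no yardstick for them. Depth limits the levels that 0 reads allow, and loss of transcripts before amplification was not measured.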
